A study of Mus musculus with 8 samples.

Results

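Chromatin accessibility was examined at 10 genes of the circuit that switches haemoglobin from embryonic and fetal to adult globin chains, in haematopoietic stem cells (HSC) that had been sorted out of mouse marrow. The genes were Bcl11a, the factor manipulated in these mice, its partners and regulators Zbtb7a, Sox6, Klf1, Myb and Lin28b, and the globin genes Hbb-y, Hbb-bh1, Hbb-bs and Hba-a1. Peaks of the 8 deposited ATAC-seq lists were merged into 90736 regions wherever they shared at least 1 bp. A region belonged to a gene when its midpoint lay inside the gene's span or within 50 kb of it (5 kb for globin genes), which gave 110 regions of the 90736. Regions were assigned to genes by position, with no measured value.

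The libraries came from Vav1-cre iMOS Bcl11a mice, 2 in each of 4 groups: MUT T1, MUT T2, WT T1 and WT T2. Every group thus carries Vav1-cre, which acts in blood cells, and an iMOS Bcl11a allele that is labelled MUT or WT. Age is labelled as 2 to 3 months, and as 3 months in the design text. The study asked what Bcl11a does inside HSC and what its overexpression does to wild-type HSC next to them. The labels do not say what separates T1 from T2, so a comparison of all MUT with all WT libraries may mix cells that overexpress Bcl11a with cells that do not. Nor do they say whether replicates, or T1 and T2 of a genotype, came from separate animals, so p-values measure only the spread between these libraries, which may be technical.

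In all, 3 libraries were shallower than the rest. The genome background, the lowest local fragment coverage per position and here the measure of a library's depth, was 3.38 and 2.03 (MUT T1), 3.21 and 3.10 (MUT T2), 3.24 and 3.29 (WT T1), and 2.45 and 1.89 (WT T2). The thin ones were MUT T1 replicate 2 and both libraries of WT T2, which also held the fewest peaks among 62232 to 74785 per list. As a check of the labelled cell type, the HSC marker genes Mecom, Hlf, Fgd5, Procr, Kit, Slamf1 and Hoxa9 each had a region within 1 kb of a gene end in all 8 libraries. Of the other lists, 4 of 8 erythroid, 2 of 6 B lymphoid, 2 of 6 T lymphoid, 1 of 6 neutrophil and monocyte and 5 of 6 stromal and endothelial markers had one, and the red cell genes Gata1, Slc4a1 and Trim10 had none in any library. Over all 21631 protein-coding genes the share was 64.8%. Gene ends here are the limits of the gene's span, so start sites inside a span were not examined, and Gata1 had 1 region inside its span.

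As background, BCL11A is a zinc-finger repressor that silences embryonic and fetal globin genes by binding the sequence TGACCA near their start sites and recruiting the NuRD complex. ZBTB7A (LRF) represses fetal globin separately, and SOX6 acts with BCL11A. KLF1 switches on adult beta-globin and Bcl11a itself, MYB raises KLF1, and LIN28B, an RNA-binding protein of fetal cells, lowers BCL11A protein. Apart from red cells, Bcl11a is needed in B lymphocytes and in HSC. Its red cell expression depends on an erythroid enhancer inside an intron, which B cells do not need.

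Listed start sites of the circuit genes were either covered by a region in 7 or 8 libraries or in none, and content of G and C overlapped between the covered and the uncovered ones. The 250 bases before the listed start are shown for 3 regulators with a called region there (Bcl11a at chr11:24080445-24080694, plus strand; Myb at chr10:21160985-21161234, minus strand; Lin28b at chr10:45470202-45470451, minus strand) and for 2 globin genes with none (Hbb-y at chr7:103853208-103853457 and Hbb-bs at chr7:103827929-103828178, both minus strand). The merged Bcl11a region began at 24080689, so it reached only the last bases of the window shown, and most of that window lay outside it. The merged Myb and Lin28b regions spanned their whole windows. Libraries were counted by calls of the merged region, so the peak of a single library may end short of a window. Sequences are from RefSeq, build GRCm38.p6, written 5′ to 3′. Capitals mark exact matches, on either strand, to 4 motifs. They are TGACCA, which BCL11A binds, the GATA factor sequence AGATAA, its variant with a leading T, written TGATAA, and the KLF1 sequence CCACACCC.
Bcl11a: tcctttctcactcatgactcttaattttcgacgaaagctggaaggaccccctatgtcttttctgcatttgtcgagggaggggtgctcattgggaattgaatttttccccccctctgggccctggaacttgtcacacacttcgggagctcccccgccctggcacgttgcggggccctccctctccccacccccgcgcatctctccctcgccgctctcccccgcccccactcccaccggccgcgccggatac
Myb: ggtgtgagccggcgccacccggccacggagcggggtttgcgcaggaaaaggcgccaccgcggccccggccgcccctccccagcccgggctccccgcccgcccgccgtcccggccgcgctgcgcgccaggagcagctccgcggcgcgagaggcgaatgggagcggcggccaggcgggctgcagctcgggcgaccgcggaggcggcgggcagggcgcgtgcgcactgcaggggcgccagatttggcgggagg
Lin28b: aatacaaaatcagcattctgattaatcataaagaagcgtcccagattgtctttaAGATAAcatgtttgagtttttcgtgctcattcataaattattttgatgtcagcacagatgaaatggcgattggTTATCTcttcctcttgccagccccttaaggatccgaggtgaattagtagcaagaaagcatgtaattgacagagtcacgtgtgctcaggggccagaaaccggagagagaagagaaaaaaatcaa
Hbb-y: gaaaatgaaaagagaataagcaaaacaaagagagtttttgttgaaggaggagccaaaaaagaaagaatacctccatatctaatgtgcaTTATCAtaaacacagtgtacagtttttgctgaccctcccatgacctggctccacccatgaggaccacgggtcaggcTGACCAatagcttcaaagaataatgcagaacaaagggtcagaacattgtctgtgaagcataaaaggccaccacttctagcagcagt
Hbb-bs: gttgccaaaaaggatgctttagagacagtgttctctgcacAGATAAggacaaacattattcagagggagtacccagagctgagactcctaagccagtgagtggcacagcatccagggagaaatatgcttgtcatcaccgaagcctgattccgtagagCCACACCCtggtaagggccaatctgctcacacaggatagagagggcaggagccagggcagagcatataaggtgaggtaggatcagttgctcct

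The Bcl11a window had 62.0% G and C and 16 CpG pairs, and the Myb window had 81.2% and 40, against a median of 52.4% and 6 over 32851 listed promoters. Zbtb7a, with 78.0% and 26 CpG pairs, was also covered in all 8 libraries. Lin28b was the exception among covered start sites, with 39.2% and 6. No called region in any library overlapped the windows of Klf1 (49.2%, 3 CpG pairs), Hbb-y (42.0%, 1), Hbb-bs (50.8%, 2) and Hba-a1 (54.0%, 4). The same held for 5 of 6 Sox6 windows, which ran from 34% and 1 CpG pair to 60.8% and 10. The richest of them (116031048 to 116031297) was close in G and C to the Bcl11a window, which a region reached only at its edge. A region called in all 8 libraries began just beyond this Sox6 window, at 116031370. Another such region began at 116039300, near the Sox6 window with 45.2% that ended at 116038994. Covered and uncovered windows thus differed here by the place of a region's edge. The remaining Sox6 window, covered in 7 libraries, had 41.6% and 2. Motif matches fell in both kinds. Hbb-y, an embryonic globin gene, held TGACCA at position −86 from the start and TGATAA on the minus strand at −162, and Hbb-bs, an adult gene, held CCACACCC at −93 and AGATAA at −210. Zbtb7a and Lin28b each held AGATAA 2 times, and the Bcl11a and Myb windows held none of the 4 motifs. Such matches are common: TGACCA occurred in 11.4% of all windows, AGATAA in 9.99%, TGATAA in 7.94% and CCACACCC in 3.20%. The table holds 9 of the 10 genes; Hbb-bh1 has no entry.

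Of the 110 regions, 59 (53.6%) were called in all 8 libraries, close to the 54.6% of all 90736 regions, and 12 (10.9%) were called in 1 library, against 11.6% of all regions. The number called per library was 88 and 72 (MUT T1), 86 and 78 (MUT T2), 85 and 82 (WT T1), and 80 and 68 (WT T2). MUT and WT libraries overlapped, and the lowest 2 counts were in the 2 libraries with the lowest genome background. For 32 regions another gene was nearer than the circuit gene, mostly around the short genes Klf1 (13 of 14) and Zbtb7a (11 of 15).

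**Figure D1:**
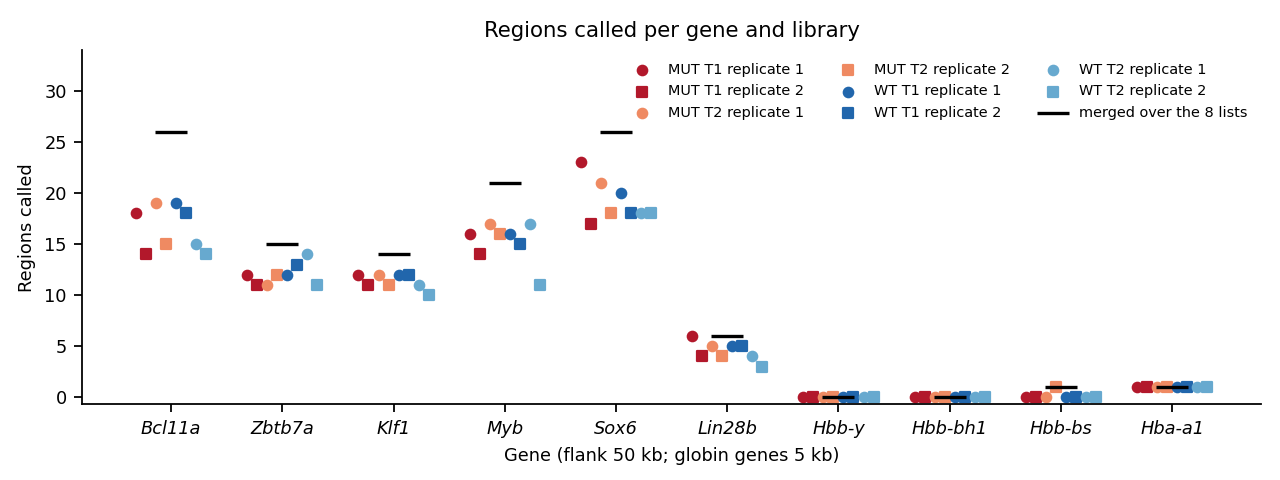
Number of regions called (y axis) at each of the 10 genes (x axis) in each library; circles are replicate 1, squares replicate 2, and black bars the regions merged over the 8 lists. Bcl11a and Sox6 each have 26 merged regions, and Hbb-y and Hbb-bh1 have 0.

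Bcl11a (chromosome 11, 24076564 to 24173558, mm10; listed start 24080695, plus strand) was surrounded by 26 regions, 15 of them inside the gene, and no other gene was nearer to any of them. The median protein-coding gene had 8 regions by the same rule, and 279 of 21631 genes (1.29%) had more than 26. A longer gene takes in a wider window, Bcl11a spans 97.0 kb, and no allowance for length was made. Called regions numbered 18 and 14 (MUT T1), 19 and 15 (MUT T2), 19 and 18 (WT T1), and 15 and 14 (WT T2). MUT averaged 16.5 ± 2.38 and WT 16.5 ± 2.38 (SD over 4 libraries each; exact two-sided permutation test over 70 arrangements, p = 1, adjusted p = 1 over 19063 genes). By this test 0% of the 19063 genes were called (163 had an unadjusted p under 0.05, and the smallest p it allows is 0.0286).

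**Figure D2:**
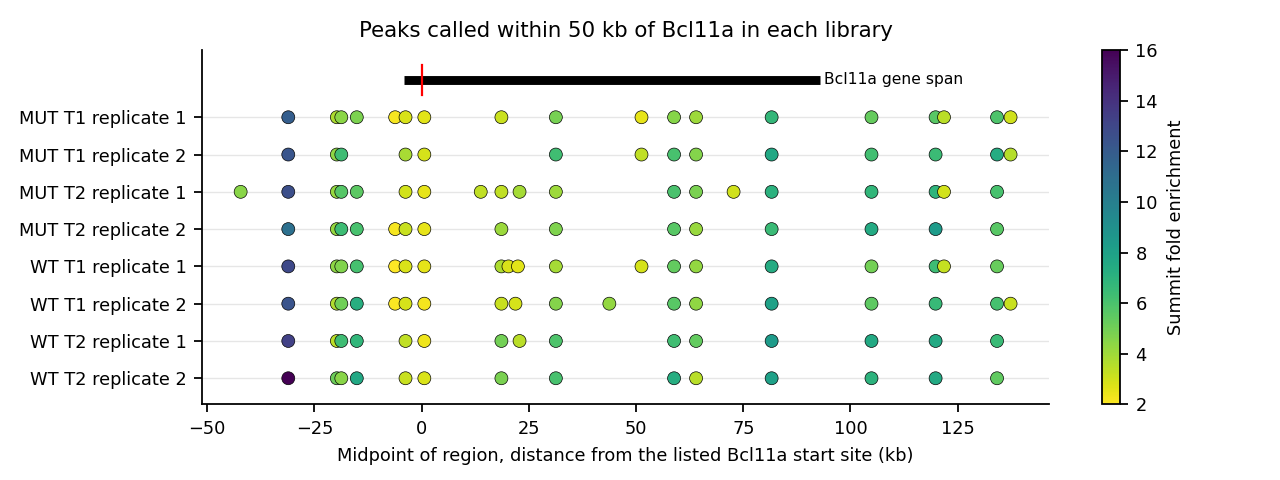
Regions within 50 kb of Bcl11a by distance of the midpoint from the listed start site (x axis, kb), 1 row per library; each dot is a called region coloured by summit fold enrichment, and the black bar is the gene span with the start site in red. The columns of 8 dots are the 12 regions called in every library, with the darkest column at −31.1 kb.

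Of the 26 regions, 12 were called in all 8 libraries, and positions of these are given as the distance of the midpoint from the listed start, negative upstream. Upstream of the listed start lay 4 (−31.1, −19.8, −18.7 and −3.8 kb), and 1 covered it (0.6 kb). Further into the gene body lay 4 (31.3, 58.9, 64.0 and 81.6 kb), and 3 lay beyond the gene (104.9, 119.8 and 134.2 kb). The −3.8 kb region covered the end of the gene span at 24076564, and its midpoint lay inside the span. The position of the highest summit varied by 70 to 418 bp across the 8 libraries at 11 of them, and by 1051 bp at the 104.9 kb region.

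The strongest of them by fold enrichment, the authors' ratio of summit to local background, was the upstream region at −31.1 kb (24049131 to 24050042). Its fold enrichment was 11.9 and 12.3 (MUT T1), 12.6 and 10.9 (MUT T2), 12.9 and 12.4 (WT T1), and 13.3 and 16.2 (WT T2). It ranked between the 90.1 and 98.9 percentiles of the 49577 regions called in all 8 libraries. The WT T2 values were the highest and the MUT values all lay at or below 12.6, with WT T1 replicate 2 inside the MUT range. MUT averaged 11.9 ± 0.757 and WT 13.7 ± 1.71 (SD, n = 4 each), and the centred log2 difference, MUT minus WT, was −0.14 (95% interval −0.32 to 0.05, limma adjusted p = 0.827).

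The region over the listed start (24080689 to 24081939) had the lowest fold enrichment of the 12. It measured 2.62 and 2.88 (MUT T1), 2.51 and 2.54 (MUT T2), 2.56 and 2.27 (WT T1), and 2.36 and 2.77 (WT T2), so the MUT and WT ranges overlapped. These values sat between the 0.0514 and 0.344 percentiles. Its summit pileup, the number of fragments over the summit as recovered from the deposited values, was 117 and 75 (MUT T1), 105 and 91 (MUT T2), 111 and 99 (WT T1), and 85 and 82 (WT T2). By pileup it ranked between the 73.4 and 84.3 percentiles of the same regions.

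The measures differ in their denominator. Local background at this summit was 25.4 to 44.1 fragments per position, or 11.3 to 15.3 times the genome background of the library. At the −3.8 kb region, which spans the lower end of the gene, it was 26.5 to 45.7, with fold enrichment of 2.79 to 3.82 and a pileup of 93 to 133. The −31.1 kb region had a lower pileup (55 to 97) on a local background of 3.56 to 6.92. By their highest pileup, the −3.8, 0.6 and 58.9 kb regions (the last at 66 to 116) stood above the other 9. By their highest fold enrichment, the −3.8 and 0.6 kb regions stood below the other 10.

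**Figure D3:**
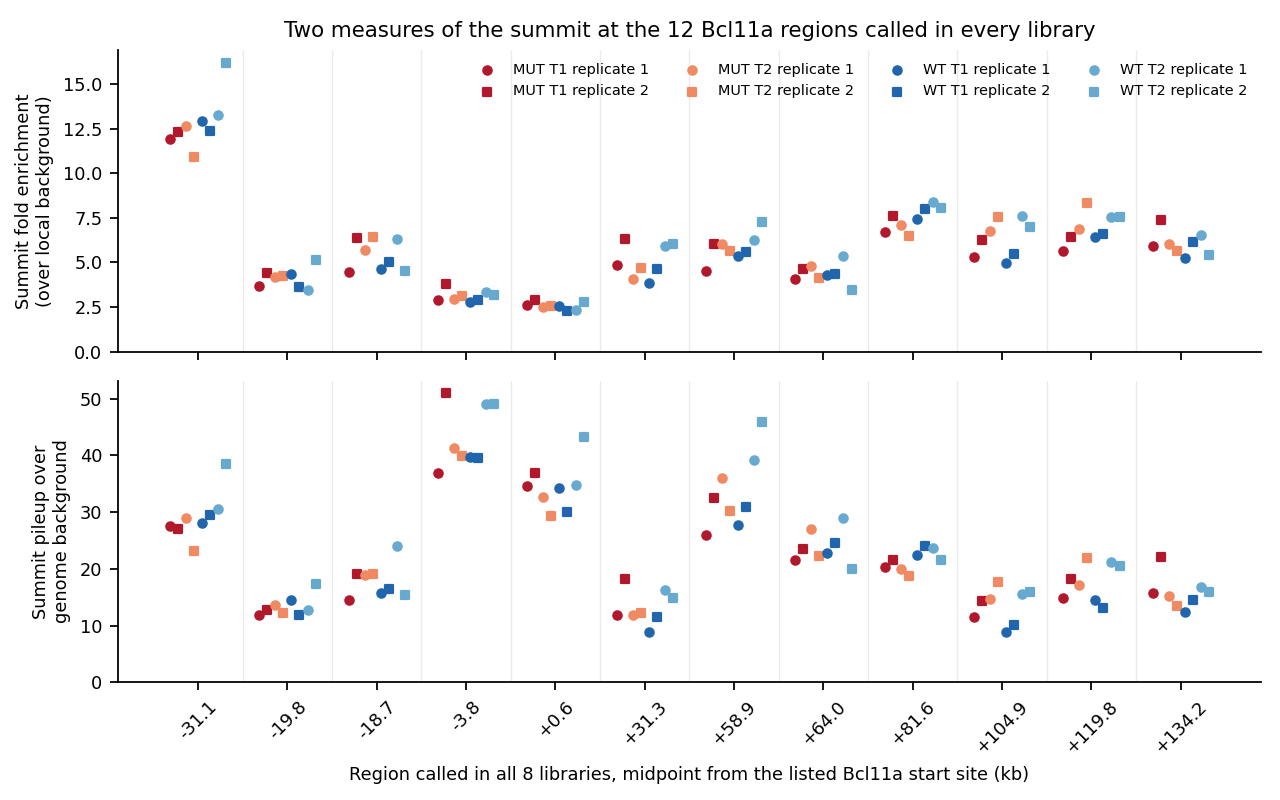
Summit fold enrichment (upper panel) and summit pileup divided by the genome background of the library (lower panel) at the 12 Bcl11a regions called in every library, ordered by distance from the listed start (x axis, kb); 1 point per library. The −3.8 and 0.6 kb regions are lowest in the upper panel and among the highest in the lower one.

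Inside the gene body, the 58.9 kb region (24139163 to 24139946) had fold enrichment of 4.53 and 6.06 (MUT T1), 6.02 and 5.66 (MUT T2), 5.35 and 5.61 (WT T1), and 6.27 and 7.28 (WT T2). Its neighbour at 64.0 kb (24144270 to 24145098) ran from 3.49 to 5.36 over the 8 libraries, and the region at 31.3 kb (24111630 to 24112342) from 3.88 to 6.31. The 81.6 kb region (24161897 to 24162716) had the highest fold enrichment within the gene, at 6.72 and 7.63 (MUT T1), 7.08 and 6.49 (MUT T2), 7.42 and 8.0 (WT T1), and 8.37 and 8.05 (WT T2). Before centring, 3 of 4 WT libraries there lay above every MUT library. MUT averaged 6.98 ± 0.494 and WT 7.96 ± 0.398 (SD, n = 4 each), with a centred log2 difference of −0.14 (95% interval −0.33 to 0.06, limma adjusted p = 0.852). The 58.9 kb region differed by −0.08 (−0.31 to 0.14) and the 64.0 kb region by 0.08 (−0.21 to 0.37). Coordinates of the erythroid enhancer and of any lymphoid element of Bcl11a were not used here, so none of these regions is equated with one, and their place relative to exons was not analysed here.

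Across the 12 Bcl11a regions, 9 were higher and 3 lower in MUT, and 0 passed limma's test, which called 0.0121% of all regions. The centred log2 differences ran from −0.14 to 0.21, with 95% intervals between −0.33 and 0.51, and the smallest adjusted p was 0.819. T1 minus T2 differences ran from −0.31 to 0.14 (smallest adjusted p = 0.895; 0% of all regions called). The T1 minus T2 extreme was the 104.9 kb region (24184844 to 24186339), where fold enrichment was 5.29 and 6.25 (MUT T1), 6.79 and 7.52 (MUT T2), 4.99 and 5.48 (WT T1), and 7.58 and 6.99 (WT T2). All 4 T1 libraries lay below all 4 T2 libraries there, with a difference of −0.31 (95% interval −0.53 to −0.08, unadjusted p = 0.0112, adjusted p = 0.895, limma). These values mix separate summits. The highest lay at 104.4 to 104.5 kb in MUT T1 replicate 1, both MUT T2 libraries and WT T2 replicate 2. It lay at 105.4 kb in MUT T1 replicate 2, both WT T1 libraries and WT T2 replicate 1.

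The 31.3 kb region gave the largest interaction among the 12, that is, the MUT minus WT difference in T1 less that in T2. Fold enrichment was 4.88 and 6.31 (MUT T1), 4.07 and 4.69 (MUT T2), 3.88 and 4.61 (WT T1), and 5.90 and 6.06 (WT T2). MUT T1 lay above WT T1 in both libraries, and MUT T2 lay below WT T2 in both. The interaction was 0.70 on the log2 scale (95% interval 0.21 to 1.19; unadjusted p = 0.00864), and it missed the threshold after adjustment (limma adjusted p = 0.675). The 3 shallow libraries held the 3 highest values, and the part of depth in this pattern was not tested. Among the 59 regions of the circuit called in every library, 2 others had an unadjusted interaction p under 0.05, at Myb and Sox6, and both ran the other way.

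The remaining 14 Bcl11a regions were called in some libraries. MUT T1 replicate 2 alone lacked 2, one at −15.1 kb (24065369 to 24065756, fold enrichment 4.74 to 7.58 in the 7 other libraries) and one at 18.6 kb (24099079 to 24099496, 3.12 to 4.96). Another 7 were called in 1 library each, 3 of them in MUT T2 replicate 1 and 4 in a WT T1 library. The region at 51.3 kb (24131709 to 24132204) appeared in both MUT T1 libraries (2.53 and 3.33), in neither MUT T2 library, in WT T1 replicate 1 (2.90) and in no WT T2 library. A region at 137.3 kb (24217847 to 24218204) likewise appeared in both MUT T1 libraries (3.00 and 3.57) and neither MUT T2 library, and in WT T1 replicate 2 (3.18) and no WT T2 library. The region at −6.2 kb (24074175 to 24074848) was called in 1 library each of MUT T1 (2.17) and MUT T2 (2.21), in both WT T1 libraries (2.04 and 2.10) and in no WT T2 library. All 3 thus had calls in T1 and were absent from both shallow WT T2 libraries.

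The genes whose regions varied most like those of Bcl11a over the 8 libraries were Lrrc8c (r = 0.976), Ccdc85c (0.970), Lamb2 (0.960), Spsb3 (0.949) and Rsrp1 (0.946), of 5288 genes compared by the mean centred log2 fold enrichment of regions within 5 kb. Sox6, the circuit gene with enough regions for this measure, had an r of 0.532. These correlations describe 8 libraries that share depth and normalization, and the 6 Bcl11a regions behind them averaged between −0.86 and −0.67, so the range was small.

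Zbtb7a (chromosome 10, 81135225 to 81152222), another repressor, also combined a low fold enrichment with a high pileup at its start site. The region over the listed start (81136078 to 81137092) had fold enrichment of 3.53 and 3.06 (MUT T1), 2.99 and 2.47 (MUT T2), 2.88 and 2.63 (WT T1), and 2.83 and 2.88 (WT T2). Both MUT T1 libraries lay above the other 6, and MUT T2 overlapped both WT groups. The MUT T1 minus WT T1 difference was 0.24 on the centred log2 scale (95% interval −0.07 to 0.54, limma adjusted p = 0.859). The values lay between the 0.106 and 3.29 percentiles by fold enrichment but between 77.9 and 93.1 by pileup. A second region at 1.6 kb (81137346 to 81138396) measured 3.05 to 4.15. Of its 15 regions, 10 were called in all 8 libraries, and the strongest (81105384 to 81106740, 8.12 to 9.99) lay nearest Map2k2.

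Sox6 (chromosome 7, 115470872 to 116040776), the largest of the 10 genes at 569.9 kb, held 24 of its 26 regions inside its span. Called regions numbered 23 and 17 (MUT T1), 21 and 18 (MUT T2), 20 and 18 (WT T1), and 18 and 18 (WT T2). Its strongest region (115615435 to 115616574) lay 185.6 kb from the nearest listed start, with fold enrichment of 11.9 and 12.4 (MUT T1), 14.1 and 12 (MUT T2), 13.6 and 13.2 (WT T1), and 14.4 and 14.8 (WT T2). The highest value was in WT and the lowest in MUT, and the ranges overlapped (centred log2 difference −0.10, 95% interval −0.27 to 0.07, limma adjusted p = 0.886). Near the upper end of the gene, 116039300 to 116040669 measured 6.23 to 11.0, and 116031370 to 116032807 measured 3.64 to 5.58. At 115750235 to 115751217, fold enrichment was 7.65 and 7.58 (MUT T1), 8.0 and 8.21 (MUT T2), 10.2 and 8.85 (WT T1), and 8.03 and 7.80 (WT T2). Both WT T1 libraries lay above the other 6, and the interaction was −0.50 (95% interval −0.92 to −0.08; unadjusted p = 0.0233, limma adjusted p = 0.675). At 116031370, the T1 minus T2 difference was 0.28 (unadjusted p = 0.0175, limma adjusted p = 0.895). Of 6 listed Sox6 starts, 1 had a region over it (115824489 to 115825205), in 7 libraries and not in MUT T1 replicate 2.

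Klf1 (chromosome 8, 84901982 to 84905291), the activator of adult beta-globin, had 1 region inside its short span, at 84902623 to 84903774, which began downstream of the listed start and did not cover it. Fold enrichment there was 8.86 and 10.2 (MUT T1), 9.85 and 8.45 (MUT T2), 9.47 and 9.20 (WT T1), and 9.32 and 10.6 (WT T2). MUT and WT overlapped in part, with the highest value in WT T2 and the lowest 2 in MUT, and the centred log2 difference was 0.005 (95% interval −0.18 to 0.19, limma adjusted p = 0.999). Its pileup of 112 to 160 put it between the 88.6 and 95.6 percentiles of the regions called in all 8 libraries. Flanking it, 2 regions gave an unadjusted p under 0.05 for MUT against WT, both nearer to other genes. At 84928479 to 84929285, nearest Mast1, MUT averaged 7.77 ± 0.935 and WT 9.64 ± 0.548 (SD, n = 4 each; log2 difference −0.26, limma adjusted p = 0.646), and MUT T1 replicate 2, at 9.07, lay inside the WT range. At 84947041 to 84947578, nearest Rtbdn, MUT averaged 5.76 ± 0.826 and WT 7.59 ± 0.909 (−0.35, adjusted p = 0.664).

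Myb (chromosome 10, 21124930 to 21160984), which promotes progenitor proliferation and Klf1 expression, had 21 regions, 10 of them called in every library. The region over its start (21160525 to 21161827) measured 5.65 and 6.97 (MUT T1), 5.53 and 5.98 (MUT T2), 5.40 and 5.37 (WT T1), and 6.73 and 6.12 (WT T2). Before centring, MUT T1 lay above WT T1 and MUT T2 below WT T2 in both libraries. After centring, the log2 difference was 0.20 (95% interval −0.12 to 0.52) between MUT T1 and WT T1. Between MUT T2 and WT T2 it was −0.03 (−0.35 to 0.29). MUT averaged 6.03 ± 0.653 and WT 5.91 ± 0.652 before centring (SD, n = 4 each). Between Myb and Hbs1l lies a stretch known for distal Myb enhancers, and 5 regions were called there or further upstream of the start in all 8 libraries or all but 1 (−21.9, −25.9, −28.1, −35.7 and −43.8 kb). The −35.7 kb region (21196367 to 21197094) gave the largest MUT minus WT difference of all 59. Fold enrichment was 4.21 and 5.95 (MUT T1), 4.51 and 4.57 (MUT T2), 5.55 and 7.14 (WT T1), and 5.77 and 7.77 (WT T2). Of the MUT libraries, 3 lay below every WT library, and MUT T1 replicate 2 fell inside the WT range. The centred log2 difference was −0.39 (95% interval −0.67 to −0.11; unadjusted p = 0.0108), and it did not pass the adjusted threshold (limma adjusted p = 0.628). At the other end of the locus, a region 83.6 kb past the start and inside Ahi1 (21076887 to 21077850) had the smallest interaction p of the 59. Fold enrichment was 7.80 and 6.96 (MUT T1), 8.90 and 8.85 (MUT T2), 8.50 and 9.92 (WT T1), and 7.64 and 7.97 (WT T2). MUT T1 lay below WT T1 and MUT T2 above WT T2 in both libraries, and the 3 shallow libraries were among the lowest 4. The interaction was −0.65 on the log2 scale (95% interval −1.09 to −0.21; unadjusted p = 0.00703, limma adjusted p = 0.675).

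Lin28b (chromosome 10, 45376617 to 45486314), known for its activity in fetal HSC, had a region over its listed start in all 8 libraries. At 45468585 to 45470467, fold enrichment was 5.36 and 6.53 (MUT T1), 6.57 and 7.46 (MUT T2), 6.05 and 6.76 (WT T1), and 7.53 and 6.52 (WT T2), with overlapping MUT and WT ranges (log2 difference −0.003, 95% interval −0.24 to 0.24, limma adjusted p = 0.999). The upper end of the span carried another (45485538 to 45487083, 6.08 to 8.03). The strongest of its 6 regions, at 45373054 to 45373739 and nearest Bves, measured 10.9 and 15.5 (MUT T1), 10.7 and 10.7 (MUT T2), 12.9 and 9.79 (WT T1), and 11.3 (WT T2 replicate 1), and was not listed in WT T2 replicate 2. That library alone lacked 2209 regions that the other 7 shared, 55 of them with a fold enrichment of at least 9 in each of the 7; MUT T1 replicate 2 alone lacked 2152, 70 of them that strong.

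The globin genes had few regions. Hbb-y and Hbb-bh1, the embryonic beta-like genes, had 0 regions within 5 kb in any library. Hbb-bs, an adult beta gene, had 1, called in MUT T2 replicate 2 only (103823912 to 103824347, fold enrichment 5.61). Hba-a1, an adult alpha gene, had 1 called in all 8 libraries, but it lay over the neighbouring gene Hbq1b (32286546 to 32287388), with fold enrichment of 9.02 and 13.7 (MUT T1), 10.9 and 10.2 (MUT T2), 12.3 and 10.7 (WT T1), and 12.7 and 15.6 (WT T2). Ranges overlapped there (log2 difference −0.18, 95% interval −0.42 to 0.06, limma adjusted p = 0.835). Hba-a1 and Hba-a2, and Hbb-bs and Hbb-bt, are near-identical copies, so reads from these genes may have been lost or split in mapping, and a missing peak there is uncertain.

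Regions called in every library did lie in or around both clusters when the distance was widened to 50 kb. Around the beta-like genes there were 8, 5 of them in all 8 libraries. One lay −8.0 kb from the Hbb-y start, on the side of the locus control region, the enhancer cluster of the beta-globin genes (103860536 to 103861944). Its fold enrichment was 5.69 and 10.1 (MUT T1), 8.68 and 8.59 (MUT T2), 8.41 and 7.0 (WT T1), and 9.08 and 9.96 (WT T2), and the lowest and highest values were both in MUT T1. Around the alpha-like genes there were 10, 7 of them in all 8 libraries, and 4 of the 7 lay inside Nprl3, the neighbouring gene that houses alpha-globin enhancers in its introns. The strongest of these 4 (32238280 to 32238922) ran from 9.39 to 13.9. Positions of the enhancers themselves were not used here, so no region is equated with one.

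**Figure D4:**
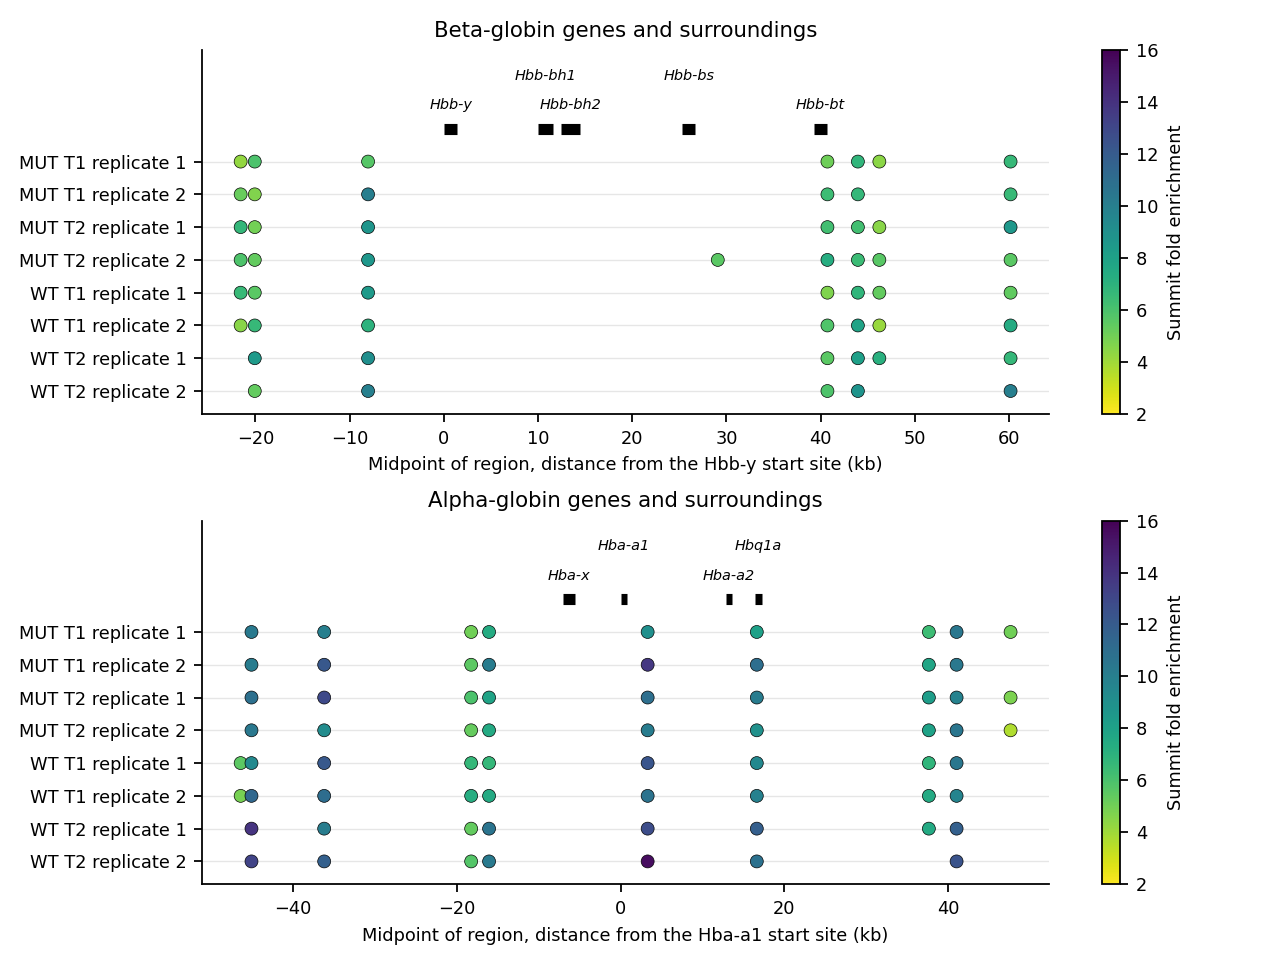
Regions within 50 kb of the beta-like (upper) and alpha-like (lower) globin genes by distance from the Hbb-y or Hba-a1 start (x axis, kb), 1 row per library, coloured by summit fold enrichment; black bars are globin genes. No column of dots lies over Hbb-y, Hbb-bh1 or Hbb-bs, and columns of 8 dots lie on both sides. A column of 8 dots lies at an end of Hbb-bt, and another lies over Hbq1a.

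Calls that separated whole groups were few. Against a background of 1.26% of all regions gained and 2.13% lost, MUT T1 gained 2 of the 110 regions relative to WT T1 and lost 0. Both gains were in Sox6. The first (115752046 to 115752546) measured 4.53 and 3.62 in MUT T1 and 4.66 in MUT T2 replicate 1. The second (115792863 to 115793303) measured 3.88 and 4.28 in MUT T1 and 3.77 in WT T2 replicate 1. MUT T2 gained 3 relative to WT T2 and lost 0, against 3.95% and 0.457% of all regions. They were a Myb region at 26.8 kb (21134024 to 21134441; 3.13 and 3.61 in MUT T2), a Sox6 region (115582498 to 115583243; 5.70 and 3.65 in MUT T2, and also called in MUT T1 replicate 1 and both WT T1 libraries), and one nearest 1110004F10Rik (116066564 to 116067175; 6.17 and 4.63 in MUT T2 and 5.47 in MUT T1 replicate 1). These shares, 1.82% and 2.73% of the 110, were near the background or below it, and the WT T2 libraries were the shallow pair. Leaving a library out loosens the rule, which then asks less of that group, so these counts could hardly fall. The largest rises were these. Without MUT T1 replicate 1, or without WT T1 replicate 2, MUT T1 lost 7 relative to WT T1. Without MUT T2 replicate 2, MUT T2 gained 11 relative to WT T2, and without WT T2 replicate 2 it lost 5.

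Between T1 and T2, MUT T1 gained 3 and lost 1 of the 110 relative to MUT T2 (background 0.641% and 1.74%). Gained were the Bcl11a regions at 51.3 and 137.3 kb and the Sox6 region at 115792863, and lost was the Myb region at 26.8 kb. WT T1 gained 3 and lost 1 relative to WT T2 (background 3.9% and 0.632%): the Bcl11a region at −6.2 kb, one near Klf1 and nearest Mast1 (84935087 to 84936780), the Sox6 region at 115582498, and, lost, one near Myb and nearest Ahi1 (21075056 to 21075441). These comparisons share libraries with those above. Here too, leaving a library out loosens the rule. Without MUT T1 replicate 2 the MUT T1 gains became 7, and without MUT T2 replicate 2 the losses became 8. Without WT T1 replicate 2 the WT T1 gains became 13, and without WT T2 replicate 2 the losses became 7. Over all 4 libraries a side, 0 of the 110 regions were gained and 0 lost in MUT against WT (background 0.222% and 0.0606%), and 0 and 0 in T1 against T2 (0.0507% and 0.0265%).

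Within the 59 regions called in every library, 0 passed limma's test for MUT against WT, where 6 of 49577 regions (0.0121%) passed, and 3 had an unadjusted p under 0.05. The 6 fell to between 0 and 2 with any 1 library left out and became 78 when summit pileup over genome background was tested, and the 59 held 0 calls each time. For T1 against T2, 0 of 59 passed (0% of all regions; 2 unadjusted), and 0 passed for the interaction (0% of all regions; 3 unadjusted). The median log2 difference between MUT and WT was 0.005 at the 59 regions and −0.006 at all 49577. Of the 59, 32 were higher and 27 lower in MUT, and 56 lay within the central 95% of all regions, which ran from −0.25 to 0.28. The 95% intervals of single regions reached from −0.67 to 0.53. In simulated data of the same size, the test recovered 23 of 100 regions changed by 0.5 on the log2 scale and 85 of 100 changed by 1. It also called 2 unchanged regions. Changes of the smaller size were thus mostly missed there. The simulation gave all libraries of a region the same spread and every MUT library the same change. It therefore does not cover shallow libraries or a change in only some MUT libraries.

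**Figure D5:**
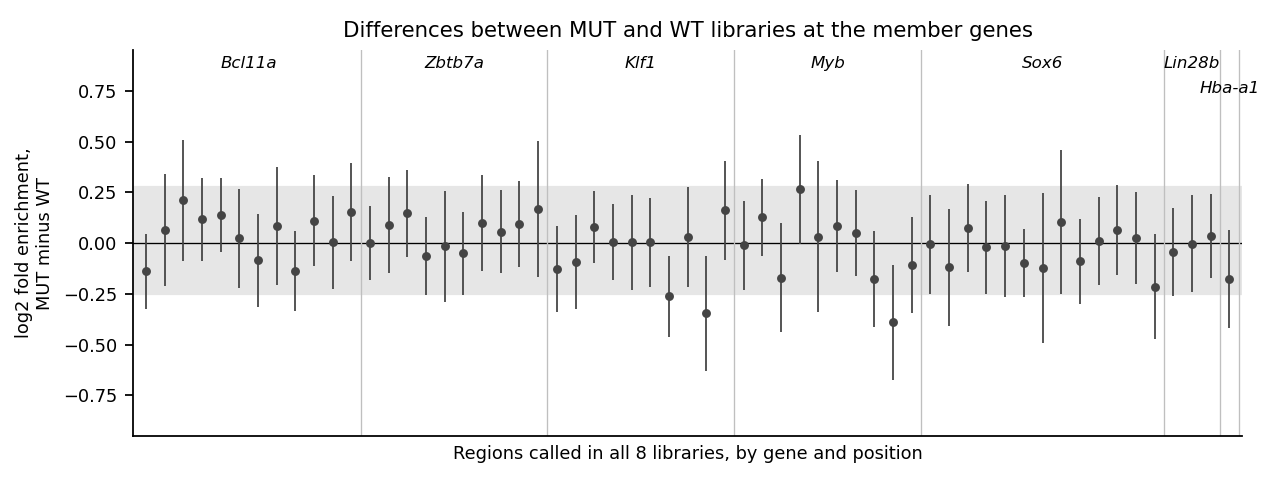
Centred log2 fold enrichment, MUT minus WT (y axis), at the 59 regions called in all 8 libraries, ordered by gene and position (x axis); points are limma estimates, bars 95% intervals, and the grey band the central 95% of all 49577 regions. The points lie between −0.39 and 0.26, and 56 of 59 fall inside the band.

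A further 25 genes of the pathway were examined in the same way. They comprised red cell and HSC transcription factors, NuRD and other corepressor subunits and regulators of fetal globin. Of the 25, 20 had a region within 1 kb of a gene end in all 8 libraries, against 6 of the 10 circuit genes and 64.8% of all genes. Gata1, the master regulator of red cells, the cofactor gene Ldb1, Nfia and the DNA methyltransferase gene Dnmt1 had none in any library, and Bcl11b, the T-lymphoid relative of Bcl11a, had one in some. Only the limits of each gene's span were examined, so a start site inside the span was not. Regions inside the span numbered 1 (Gata1), 3 (Ldb1), 47 (Nfia) and 2 (Dnmt1), with 0, 2, 22 and 1 of them called in all 8 libraries. Of the 392 regions of the 25 genes, 228 (58.2%) were called in every library and 0 of these passed for MUT against WT. At an unadjusted p under 0.05 there were 10, and the smallest limma adjusted p was 0.275, at Nfia. MUT T1 gained 5 (1.28%) and lost 11 (2.81%) of the 392 relative to WT T1, against 1.26% and 2.13% of all regions. MUT T2 gained 13 (3.32%) and lost 2 (0.510%) relative to WT T2, against 3.95% and 0.457%. Over all libraries, MUT gained 1 and lost 1 relative to WT (0.255% each, against 0.222% and 0.0606%). The other 5 globin genes had 3 regions, all called in every library, and 0 passed. One overlapped an end of Hbb-bt (103812203 to 103812785), another lay within 5 kb of that gene, and the last lay over Hbq1a (32299795 to 32300788).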

How the data were processed

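ATAC-seq, in which a transposase inserts adapters into open chromatin, was done on 8 libraries of sorted mouse HSC, with peaks deposited by the authors separately for each library, not for pools. The submitters' processing notes name Bowtie2 (no version), SAMtools, MACS2 and, as build, mm10. No source used here says whether cut sites were shifted. Each deposited list gives, per peak, a score, a fold enrichment (the ratio of summit to local background, each plus 1), −log10 p and −log10 q values and the offset of the summit, in the form the authors deposited. The lowest deposited −log10 q was 3.00, so an unlisted region may still be accessible below that threshold. Fold enrichment is the authors' value for each peak, and its use between libraries rests on the centring below. Fold enrichment, its means and its order over libraries are given before centring.

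Read totals are not in the lists. Summit pileup and local background were solved from the deposited fold enrichment and −log10 p, with whole numbers that returned the −log10 p within 0.001 for all but 6 to 9 peaks a library. Merging covered chromosomes 1 to 19 and X, and any overlap of at least 1 bp with a library's peak made a region called there. Gained means called in every library of the first group and none of the second, and lost the reverse. The log2 of the highest fold enrichment per region was centred on its median in each library and tested with limma 3.58.1 (R 4.3.3, trended empirical Bayes, means of 4 groups, no replicate block) over the 49577 regions called in all 8 libraries, with Benjamini-Hochberg adjustment and a threshold of 0.05. Regions called per gene were compared by an exact permutation test. The fit was tested on simulated data. Alternatives covered the flank, the q threshold, 250 bp summit windows, lists of equal length, normalization, the measure, a depth term, the replicate block and each library left out; restricting calls to the 5 deepest libraries was added after seeing the data.

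Gene spans came from a RefSeq table and start sites and promoter sequences from RefSeq, both of GRCm38.p6, the assembly of mm10. A gene with several listed starts was measured from the nearest. All regions tied to the 10 genes were counted; those described singly lie over or near a gene end, have the highest fold enrichment, were gained or lost, had an unadjusted p under 0.05 for MUT against WT, T1 against T2 or the interaction, or, at Bcl11a and upstream of Myb, were called in 7 or 8 libraries; the last 2 kinds were chosen after their values were seen. Members, gene lists and markers were chosen with earlier results of these data known. Motifs within peaks and the place of regions relative to exons were not analysed here. A further marker of the HSC list is not reported here.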

Additional observations from a re-analysis of the deposited data

Results flagged for a closer look

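The number of regions called at Sox6 in the WT libraries was 20 and 18 in T1 and 18 and 18 in T2. WT T1 replicate 1 stood apart from the other 3 libraries, which were equal. The gap over the range was therefore 1, above Dixon's 95% critical value for 4 samples. With 3 tied counts any difference gives 1, so the rule cannot weigh its size. The MUT libraries had 23 and 17 in T1 and 21 and 18 in T2. Of 36 groups of 4 libraries screened, 1 met this rule, and chance alone would mark about 1 in 20.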

How the results depend on the processing

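No alternative changed the reading of the members' fold enrichment: 0 of the member regions passed limma's test for MUT against WT or for T1 against T2 in any of 16 alternative fits, although 10 of 189 alternative differences at the 12 Bcl11a regions had the other sign. Over all regions, the 6 calls for MUT against WT became 78 (65 higher and 13 lower) with summit pileup over genome background, 1 with lists of equal length, 0 with depth as a covariate, and 0 with the replicate block, which left T1 against T2 at 0. Same-numbered libraries deviated together only weakly (r of 0.016 to 0.076). That cannot show whether they shared an animal or a batch. The causes of these shifts were not tested. A 20 kb flank left 37 regions called in all 8 libraries. Counts of gained and lost regions were small and moved. For MUT T1 against WT T1, gains became 0 at a −log10 q of at least 5, 0 with equal lists and 4 in the 5 deepest libraries, and losses 1 with a 50 kb globin flank, 1 with equal lists and 1 in the 5 deepest. For MUT T2 against WT T2, gains became 5 with the globin flank and 0 with equal lists, and losses 1 at the stricter q and 1 with equal lists. For MUT T1 against MUT T2, gains became 1, 1 and 7 at the stricter q, with equal lists and in the 5 deepest, and losses 0 at the stricter q and 2 in the 5 deepest. For WT T1 against WT T2, gains became 5 with the globin flank, 6 at the stricter q and 1 with equal lists, and losses 0 with the 20 kb flank. The 5 deepest libraries were MUT T1 replicate 1, both of MUT T2 and both of WT T1. No WT T2 library was left, so all WT there means WT T1 and all T2 means MUT T2. MUT T1 was 1 library, which loosens the rule for gained and lost regions. Counted so, 1 region was gained in all MUT against all WT and 2 were lost in all T1 against all T2. With each library left out in turn, member regions numbered 105 to 111 and those called in every library 59 to 62. Each omission also loosens the rule for gained and lost regions, so those counts could hardly fall. Gains and losses ranged over 3 to 4 and 1 to 7 for MUT T1 against WT T1, 4 to 11 and 0 to 5 for MUT T2 against WT T2, 4 to 7 and 2 to 8 for MUT T1 against MUT T2, and 5 to 13 and 1 to 7 for WT T1 against WT T2. They ranged over 0 to 1 and 0 to 0 for all MUT against all WT, and 0 to 1 and 0 to 1 for all T1 against all T2. Calls over all regions were 0 to 2 for MUT against WT and 0 to 0 for T1 against T2, and genes called by the permutation test 0 to 0. Of 392 alternative values, 317 kept their call or stayed close to the main value. The WT T2 libraries and MUT T1 replicate 2, the shallowest, lack regions that deeper libraries list, some of them strong, and the part of depth in this was not tested.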

Other observations

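Some regions farther than 5 kb from the globin genes differed in their calls between groups. Downstream of the alpha-like genes, a region at 47.6 kb from the Hba-a1 start (chromosome 11, 32330956 to 32331589) was called in MUT T1 replicate 1 (fold enrichment 5.02) and both MUT T2 libraries (4.75 and 3.66), and in no WT library. Inside Nprl3, a region at −46.4 kb (32237095 to 32237462) was called in no MUT library and in both WT T1 libraries (5.55 and 4.86). Upstream of Hbb-y, a region at −21.6 kb (chromosome 7, 103874456 to 103875070) appeared in both MUT T1 libraries (4.25 and 5.25), both MUT T2 libraries (6.70 and 5.91) and both WT T1 libraries (6.56 and 4.50), and in neither of the shallow WT T2 libraries. Fold enrichment of all regions around the clusters ran from 3.66 to 15.6 at the alpha-like and from 4.16 to 10.1 at the beta-like genes. These regions were picked after their values were seen.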
